A study of Oryctolagus cuniculus with 17 samples.

Results

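The genes described here code for laminin chains, integrin subunits and other structural proteins of the basement membrane, and were followed in lungs of preterm rabbit pups kept in high oxygen or in room air. They were chosen by human gene symbol, taking the laminin chains, the alpha and beta integrin subunits, the nidogens NID1 and NID2, and HSPG2, NPNT, DAG1, PXDN, NTN4 and TINAGL1, whatever their values. The rule itself was set with earlier results of these data known. It gave 40 genes of 13827 in the deposited table, made up of 8 laminin chains, 16 integrin alpha subunits, 8 integrin beta subunits and 8 other proteins. All 40 passed the filter on low counts. ITGAD and ITGAX lie in 1 locus of the table together with the muscle gene COX6A2 and carry identical counts, which include those of COX6A2, so the 40 genes stand on 39 loci. ITGA1, ITGB2 and LAMB2 share a locus with PELO, PTTG1IP and USP19, in that order, and ITGA10 also lies in a locus of several genes, so that the counts of these 4 cannot be separated from those of their neighbours. Laminin and integrin genes that the rule did not find, among them LAMA5, ITGA5 and ITGA7, were not analysed here.

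New Zealand White pups were taken by C-section at 28 days of gestation, tube-fed a milk replacer and housed in incubators with 21% oxygen (normoxia, NT) or 95% oxygen (hyperoxia, HT). Both arms were therefore preterm, and no term-born lung was among the samples. Poly(A) RNA of right lung homogenate was sequenced on postnatal days 3, 5 and 7, with 3 samples each for NT3, NT5, NT7, HT3 and HT7 and 2 samples for HT5. Library totals ranged from 13123731 to 18111086 counts when each locus was counted once. The labels do not say whether replicates came from separate litters, so p-values measure the spread between these samples only.

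The basement membrane is a thin sheet of matrix under epithelium and endothelium and around muscle, fat and nerve. Laminins are trimers of an alpha, a beta and a gamma chain that polymerize into 1 of its networks, type IV collagen forms the other, and nidogens and perlecan (HSPG2) tie the networks together. Cells hold on to it through integrins, receptors made of an alpha and a beta subunit, and through dystroglycan (DAG1). In the lung this sheet lies between alveolar epithelium and capillaries, where both cell layers can share a single fused membrane, and the ligand nephronectin (NPNT) with its receptor subunit ITGA8 is known for a role in organ development.

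Most of the differences called between the arms were decreases, and they were called on days 5 and 7. On day 7, 20 of the 40 genes were lower in hyperoxia and 4 were higher, when 23.7% of all genes tested were called each way. The decreases included every laminin alpha chain measured, the LAMB1, LAMB2 and LAMC1 chains, NID2, HSPG2, NPNT, PXDN and DAG1. The 4 higher genes were ITGA2, ITGAV, ITGB6 and LAMB3. The largest difference was that of NPNT, whose HT7 level was 8.73% of the NT7 level. Here and below a gene is called higher or lower when its adjusted p-value in edgeR's quasi-likelihood test, with Benjamini-Hochberg adjustment over 13142 genes, was under 0.05. Fold changes are log2 of hyperoxia over normoxia (log2FC) with a standard error (SE).

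**Figure D1:**
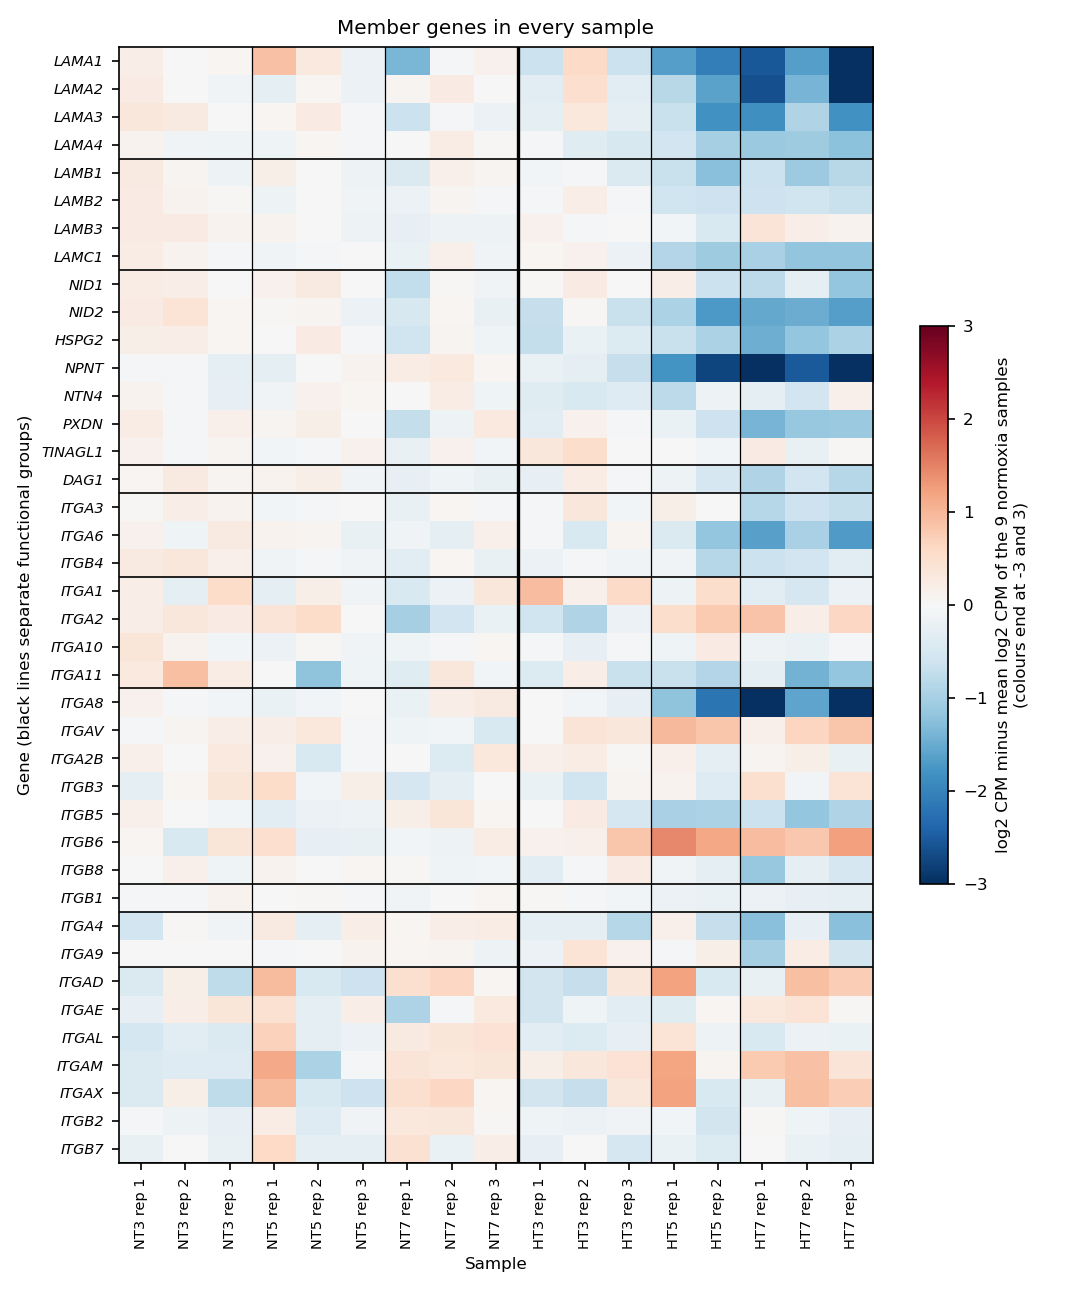
Level of each of the 40 genes (rows, in functional groups) in each of the 17 samples (columns), as log2 CPM minus the mean of the 9 normoxia samples, where CPM are read counts scaled for library size. Blue cells mark lower levels. They are densest in the HT5 and HT7 columns for the laminin chains, NID2, NPNT, ITGA6 and ITGA8, while ITGB6 is red there.

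No gene of the 40 was called in either direction on day 3, when 0.517% of all genes tested were called higher and 0.517% lower. At an unadjusted p-value under 0.05 stood 4 of the 40 (ITGA2, HSPG2, NID2 and ITGB4, all lower in hyperoxia) and 2013 of 13142 genes in all, and the lowest adjusted p among the 40 was 0.103, for ITGA2. The Wald test of DESeq2 called 1, ITGA2. On day 5, 2 genes were called higher (ITGAV and ITGB6) and 12 lower (HSPG2, ITGA6, ITGA8, ITGB5, LAMA1, LAMA3, LAMA4, LAMB1, LAMB2, LAMC1, NID2 and NPNT). The lower genes made up 30.0% of the 40, against 15.4% of all genes tested, and the higher ones 5.0% against 15.9%. On day 7 the share called lower was 50.0% against 23.7% of all genes, and that called higher was 10% against 23.7%. The day 5 count rests on few samples. The number called lower dropped without HT5 replicate 2 and rose without HT5 replicate 1, fits that leave 1 HT5 sample. The share of all genes called in those fits is not given, so they cannot be set against 15.4%.

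**Figure D2:**
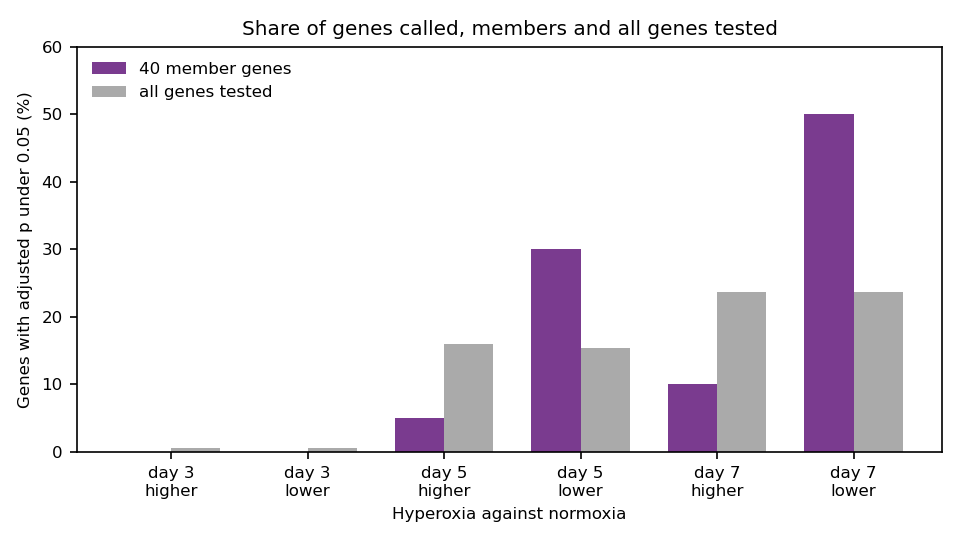
Share of genes called higher or lower in hyperoxia on each day (vertical axis, percent), for the 40 genes (purple bars) and for all 13142 genes tested (grey bars). The purple bar is the taller for lower genes on days 5 and 7 and the shorter for higher genes.

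The median log2FC of the 40 genes was -0.11 on day 3, -0.32 on day 5 and -0.51 on day 7, while that of all genes tested was 0.00, -0.02 and -0.01. Summed over the 39 loci, the level lay between 11954 and 14883 CPM in the normoxia samples of all days. It was 11844 to 13784 CPM in HT3, 10075 and 8061 CPM in HT5 and 7408 to 8018 CPM in HT7. The HT5 and HT7 sums were thus below every normoxia sample and the HT3 sums overlapped them. Under the rule used in the study (adjusted p under 0.01 and a log2FC beyond 2 in size), LAMA1 and NPNT were called lower on day 5, when 0.761% of all genes were, and ITGA8, LAMA1, LAMA2 and NPNT on day 7, against 2.84%. None of the 40 was called higher by that rule on any day. Few genes of the 13142 tested were, 108 on day 5 and 230 on day 7, so this says little about the 40.

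**Figure D3:**
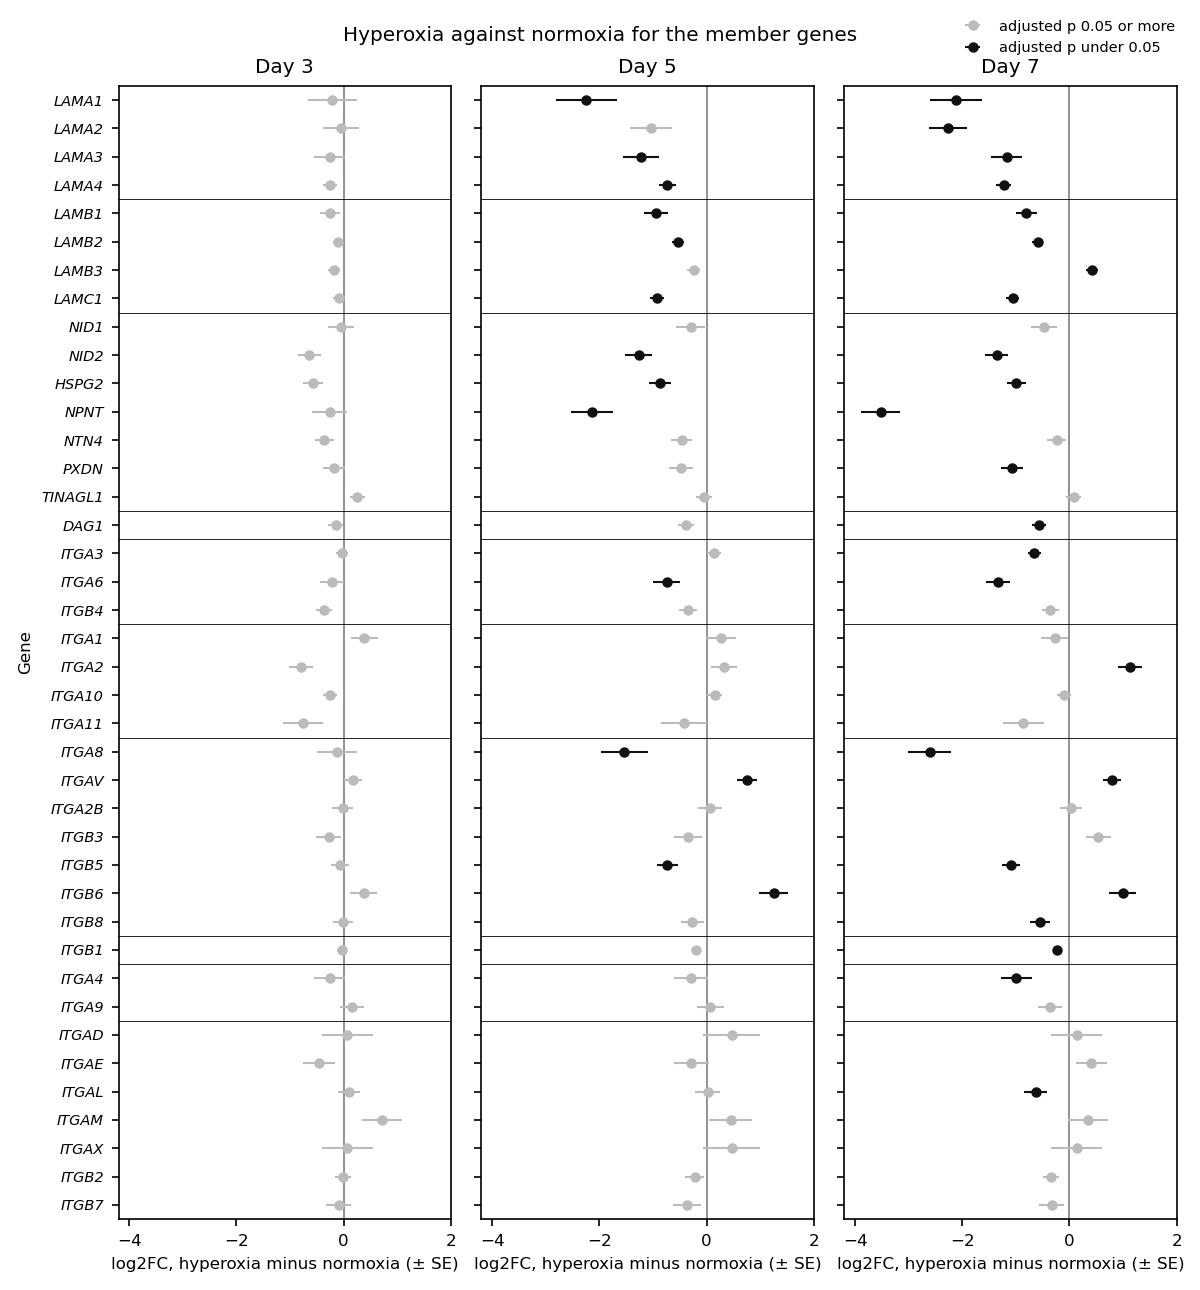
log2FC of hyperoxia over normoxia (horizontal axis) with its standard error for each of the 40 genes on days 3, 5 and 7. Black points have an adjusted p under 0.05. There are none on day 3, 14 on day 5 and 24 on day 7, most of them left of 0.

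NPNT codes for nephronectin, a basement membrane protein that is the main known ligand of the integrin made of ITGA8 and ITGB1. The gene lies on chromosome 15 (OryCun2.0 positions 43630779 to 43712169, minus strand). Its level in normoxia was 1350.4, 1312 and 1128 CPM on day 3, 1118, 1366 and 1479.7 CPM on day 5, and 1612, 1674 and 1441 CPM on day 7. In hyperoxia it was 1191, 1132 and 850.3 CPM on day 3, 398 and 204 CPM on day 5, and 77.5, 239 and 96.4 CPM on day 7. The groups overlapped on day 3, and every HT5 and HT7 sample was below every normoxia sample. The log2FC was -0.26 (SE 0.33, adjusted p = 0.765) on day 3, -2.14 (SE 0.40, adjusted p = 0.00151) on day 5 and -3.52 (SE 0.36, adjusted p = 5.71e-06) on day 7. HT7 replicate 2 stood above the other two HT7 samples, and without it the day 7 log2FC was -4.17.

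ITGA8, the receptor subunit, lies on chromosome 16 (45640460 to 45827947, plus strand) and showed a like course. It stood at 479, 419.9 and 412 CPM in NT3, 379, 414 and 440.1 CPM in NT5, and 379.7, 500.1 and 522 CPM in NT7. The HT3 samples, at 429, 410.4 and 368 CPM, overlapped NT3, while HT5 had 188 and 95.4 CPM and HT7 had 44.2, 147 and 39.3 CPM, with no overlap on either day. Its log2FC was -0.12 (SE 0.37) on day 3, -1.54 (SE 0.44, adjusted p = 0.0166) on day 5 and -2.61 (SE 0.40, adjusted p = 0.000114) on day 7. The sample that was highest for NPNT in HT7, replicate 2, was again the highest here, and without it the day 7 log2FC was -3.47. The day 5 call was lost without HT5 replicate 2 (adjusted p = 0.196). ITGB1, the beta subunit that pairs with ITGA8 and with many other alpha subunits, moved far less and is given with the laminin receptors.

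**Figure D4:**
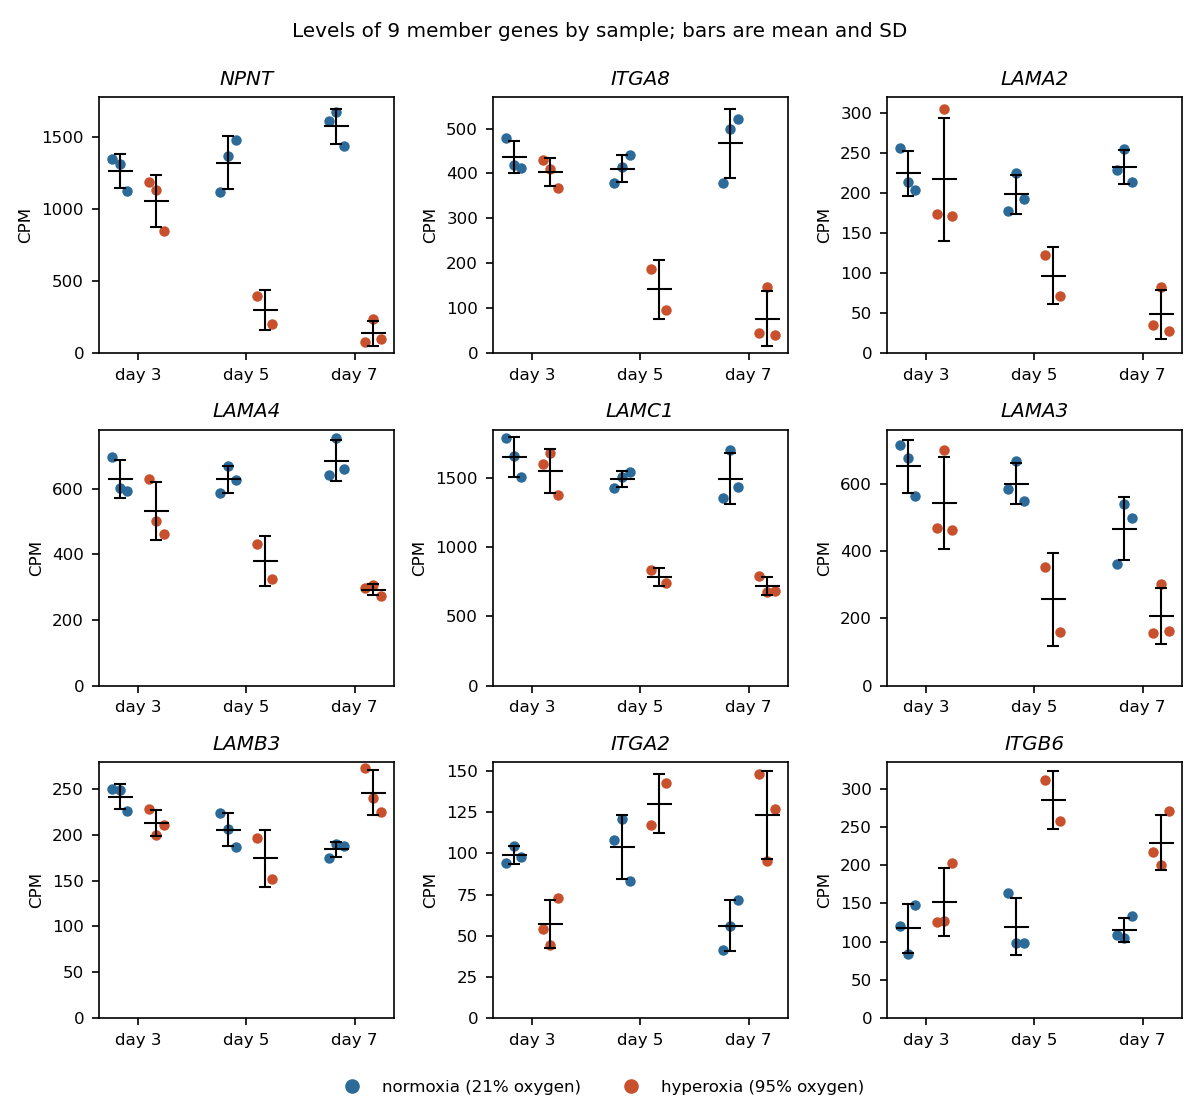
CPM of 9 of the genes in each sample (points, blue for normoxia and orange for hyperoxia) by day, with mean and SD as bars (n = 3, HT5 n = 2) and axes from 0. NPNT, ITGA8, LAMA2, LAMA4, LAMC1 and LAMA3 separate downward on days 5 and 7, ITGB6 separates upward, and ITGA2 is below normoxia on day 3 and above it on day 7.

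All 4 laminin alpha chains measured were called lower on day 7. LAMA2, the alpha chain known for muscle and peripheral nerve, lies on chromosome 12 (118812191 to 119513490). It was 256, 214 and 204 CPM in NT3, 178, 225 and 192 CPM in NT5, and 229, 256 and 214 CPM in NT7. In hyperoxia it was 174, 306 and 172 CPM on day 3, 122 and 71.4 CPM on day 5, and 34.9, 83.1 and 26.9 CPM on day 7. Only the HT7 and HT5 samples lay wholly below their normoxia group. Its log2FC was -1.04 (SE 0.39, adjusted p = 0.0549) on day 5 and -2.27 (SE 0.35, adjusted p = 0.000132) on day 7. The day 5 difference missed the threshold, but was called with DESeq2, with the samples of day 5 alone and without HT5 replicate 1. Without HT7 replicate 2 the day 7 value was -2.91. The high LAMA2 value in HT3 replicate 2 came with a summed skeletal muscle marker level of 418 CPM. HT5 replicate 1 had 375 CPM, while all other samples had 57.8 to 115 CPM. Among these, the marker sum was 93.4 to 112 CPM in NT7 and 62.1 to 72.7 CPM in HT7. HT3 replicate 2 was also the highest HT3 sample for LAMA1, LAMA3, NID2 and HSPG2, among others, though not for LAMA4, ITGA8 or NPNT. The part of muscle tissue in these values was not tested.

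LAMA1, the alpha chain of early embryonic laminin, was 38.8, 34.6 and 35.5 CPM in NT3, 62.2, 42.0 and 30.0 CPM in NT5 and 13.1, 33.4 and 37.3 CPM in NT7. Its hyperoxia values were 21.8, 50.2 and 21.6 CPM on day 3, 10.8 and 8.12 CPM on day 5, and 5.83, 10.9 and 2.66 CPM on day 7. The day 7 groups came close, with 13.1 CPM in the lowest normoxia and 10.9 CPM in the highest hyperoxia sample. The log2FC was -2.24 (SE 0.57, adjusted p = 0.0085) on day 5 and -2.12 (SE 0.49, adjusted p = 0.00257) on day 7. Without HT5 replicate 2 the day 5 call was lost (adjusted p = 0.106), and without HT7 replicate 2 the day 7 value was -2.72.

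LAMA3 gives the alpha chain of the laminin to which epithelial cells anchor through hemidesmosomes. Its normoxia levels were 717, 677 and 566 CPM on day 3, 586, 668 and 548 CPM on day 5, and 363, 540.3 and 499.8 CPM on day 7. Against these stood 469, 703 and 462 CPM in HT3, 354 and 159 CPM in HT5, and 157, 304 and 161 CPM in HT7. Both later groups were below their normoxia groups without overlap, and the log2FC was -1.23 (SE 0.34, adjusted p = 0.0138) on day 5 and -1.17 (SE 0.30, adjusted p = 0.00446) on day 7. The 2 HT5 samples differed, and the day 5 value was -1.92 without replicate 1 and -0.78 without replicate 2, when the call was lost (adjusted p = 0.189).

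LAMA4 is the alpha chain typical of blood vessel walls and mesenchyme. It was 697, 601 and 594 CPM in NT3, 589, 670.2 and 627 CPM in NT5, and 641, 757 and 662 CPM in NT7. HT3 had 631, 501 and 462 CPM, HT5 433 and 326 CPM, and HT7 297, 307 and 274 CPM. The HT7 samples lay close together, and neither HT5 nor HT7 overlapped normoxia. The log2FC was -0.25 (SE 0.13) on day 3, -0.73 (SE 0.15, adjusted p = 0.00275) on day 5 and -1.23 (SE 0.13, adjusted p = 8.47e-06) on day 7. The day 5 call was lost without HT5 replicate 2 (adjusted p = 0.0651).

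Of the beta and gamma chains, LAMB1, LAMB2 and LAMC1 were lower on days 5 and 7 and LAMB3 was higher on day 7. LAMC1, the gamma chain that most laminins of the body share, was placed on an unassembled scaffold. It had 1792, 1658 and 1508 CPM in NT3, 1431, 1509 and 1548 CPM in NT5, and 1353, 1704 and 1433 CPM in NT7, against 1599, 1681 and 1376 CPM in HT3, 833 and 741 CPM in HT5, and 792, 679 and 683 CPM in HT7. Days 5 and 7 showed no overlap. The log2FC was -0.09 (SE 0.12, adjusted p = 0.765) on day 3, -0.93 (SE 0.13, adjusted p = 0.000309) on day 5 and -1.06 (SE 0.12, adjusted p = 8.93e-06) on day 7, when 48.0% of the normoxia level was left.

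LAMB1, a beta chain found in most tissues, stood at 635, 562 and 475 CPM in NT3, 594, 526 and 479 CPM in NT5 and 391, 586 and 565 CPM in NT7. Hyperoxia samples had 499, 518 and 389 CPM on day 3, 332 and 223 CPM on day 5, and 337, 251 and 295 CPM on day 7. Its day 7 log2FC was -0.80 (SE 0.19, adjusted p = 0.00291), and that of day 5 was -0.94 (SE 0.22, adjusted p = 0.00507), a call lost without HT5 replicate 2 (adjusted p = 0.0959). LAMB2, the beta chain of synapses and kidney glomeruli, fell by 0.53 (SE 0.11, adjusted p = 0.0033) on day 5 and by 0.59 (SE 0.10, adjusted p = 0.000256) on day 7 on the log2 scale, in a locus shared with USP19. It ranged from 1069.8 to 1419.5 CPM over the normoxia samples, with a median of 1195 CPM, and from 757 to 798 CPM over HT5 and HT7. These ranges left a gap between the arms. LAMB3, partner of LAMA3 in the laminin of hemidesmosomes, went the other way. HT7 had 225 to 273 CPM and NT7 had 175 to 189.6 CPM (log2FC 0.42, SE 0.11, adjusted p = 0.00623), although NT3, at 226 to 249.8 CPM, overlapped HT7. It was called lower on day 5 without HT5 replicate 1. LAMA3 and LAMB3 thus changed in opposite directions between the same samples on day 7.

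The proteins that link the laminin and collagen networks split as well. HSPG2, perlecan, a large heparan sulfate proteoglycan, had 1484, 1510.3 and 1354 CPM in NT3, 1317, 1556 and 1252 CPM in NT5, and 869.8, 1394 and 1205 CPM in NT7. In hyperoxia it had 804, 1139 and 985 CPM on day 3, 823 and 682 CPM on day 5, and 477, 585 and 684 CPM on day 7. All hyperoxia samples were below the normoxia samples of their day on each of the 3 days. The log2FC was -0.57 (SE 0.18, adjusted p = 0.143) on day 3, -0.87 (SE 0.20, adjusted p = 0.00582) on day 5 and -0.99 (SE 0.18, adjusted p = 0.000437) on day 7, and the day 5 call was lost without HT5 replicate 2 (adjusted p = 0.0877).

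NID2, a nidogen, showed the same order of groups. It was 212, 237 and 186 CPM in NT3, 183, 189 and 157 CPM in NT5 and 129, 185 and 153 CPM in NT7, against 110.3, 185 and 113 CPM in HT3, 92.6 and 54.5 CPM in HT5 and 61.9, 63.7 and 56.6 CPM in HT7. No hyperoxia sample reached the lowest normoxia sample of its day. The log2FC was -0.64 (SE 0.21, adjusted p = 0.164), -1.27 (SE 0.25, adjusted p = 0.002) and -1.36 (SE 0.22, adjusted p = 0.000162) on days 3, 5 and 7. NID1, the other nidogen, was not called on any day. Its levels were 676, 665 and 581 CPM in NT3, 632, 694 and 579 CPM in NT5, 348, 593 and 536 CPM in NT7, 589.7, 687 and 577 CPM in HT3, 664 and 369 CPM in HT5, and 334, 475 and 258 CPM in HT7. The groups overlapped on every day, and the day 7 log2FC was -0.47 (SE 0.24, adjusted p = 0.12). It was called without HT7 replicate 2 (adjusted p = 0.0213) or without NT7 replicate 1 (adjusted p = 0.0363).

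PXDN, peroxidasin, the enzyme that crosslinks type IV collagen, was called lower on day 7 alone. Normoxia had 642, 524 and 603 CPM on day 3, 575, 619 and 540.2 CPM on day 5 and 334, 492 and 671 CPM on day 7. Hyperoxia had 439, 598 and 523 CPM, then 478 and 352 CPM, then 208, 248 and 252 CPM. NT7 was widely spread, yet its lowest sample was above the highest of HT7 (log2FC -1.08, SE 0.20, adjusted p = 0.000589). NTN4, a laminin-related netrin, and TINAGL1, a matrix protein that binds integrins, were not called between the arms. NTN4 had a log2FC of -0.36, -0.47 and -0.24 on days 3, 5 and 7, with HT3 and HT5 wholly below normoxia. On day 5 its value ran from -0.84 to -0.18 over the alternatives, and it was called lower without HT5 replicate 2 (adjusted p = 0.0384). TINAGL1 had 0.25, -0.05 and 0.08 with overlap on each day.

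Dystroglycan, the receptor that binds laminins through sugar chains, declined on day 7. DAG1 had 330.1, 381 and 334 CPM in NT3, 338, 356 and 295 CPM in NT5, and 266, 288 and 271 CPM in NT7. The hyperoxia samples had 267, 369 and 306 CPM on day 3, 285 and 222 CPM on day 5 and 169.8, 213 and 175 CPM on day 7. There was no overlap on days 5 and 7, with a log2FC of -0.38 (SE 0.15, adjusted p = 0.0706) and -0.57 (SE 0.14, adjusted p = 0.00334). On day 5 it was called with a replicate block (adjusted p = 0.0374) and without HT5 replicate 1 (adjusted p = 0.0306).

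Among the integrin subunits that bind laminin, ITGA6, part of hemidesmosomes together with ITGB4, was 208, 174 and 228 CPM in NT3, 205, 199 and 163 CPM in NT5, and 176, 156 and 211 CPM in NT7. It was 183, 139 and 202 CPM in HT3, 141 and 85.3 CPM in HT5, and 61.1, 97.1 and 58.2 CPM in HT7. HT5 and HT7 lay below normoxia throughout. The log2FC was -0.74 (SE 0.25, adjusted p = 0.0372) on day 5 and -1.33 (SE 0.23, adjusted p = 0.000263) on day 7. The day 5 call was lost with the samples of day 5 alone (adjusted p = 0.0736), without HT5 replicate 2 (0.362), without NT5 replicate 1 (0.0794) and without NT5 replicate 2 (0.0873). ITGA3, a laminin receptor subunit of epithelium, had 256 to 301 CPM in HT7 and 393 to 479 CPM in NT7 (log2FC -0.66, SE 0.12, adjusted p = 0.000392), while on day 5 it was 522 and 460.1 CPM in hyperoxia and 438 to 455 CPM in normoxia (log2FC 0.13, SE 0.13). ITGB4 was not called between the arms, with a log2FC of -0.37, -0.35 and -0.36 on days 3, 5 and 7. All its hyperoxia samples were below the normoxia samples of their day, although on day 5 the nearest samples of the arms both rounded to 77.4 CPM. Its day 5 log2FC ran from -0.76 to -0.04 over the alternatives, and it was called lower without HT5 replicate 1 (adjusted p = 0.00346).

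ITGB1, the beta subunit shared by most of these receptors, was 1249.5, 1233 and 1378 CPM in NT3, 1286, 1297 and 1247 CPM in NT5 and 1181, 1282 and 1325 CPM in NT7. The values in hyperoxia were 1316, 1250.3 and 1197 CPM on day 3, 1133 and 1102 CPM on day 5 and 1134, 1068 and 1033 CPM on day 7. The HT5 and HT7 samples were all below those of normoxia, by little. Its log2FC of -0.23 on day 7 (SE 0.08) was called at an adjusted p of 0.0374. This was the smallest difference among the 24 genes called, and the call did not hold with a replicate block (adjusted p = 0.114), with day 7 samples alone (0.155), or without HT7 replicate 2 (0.0735), HT7 replicate 3 (0.139), NT7 replicate 2 (0.0933) or NT7 replicate 3 (0.129).

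The integrin subunits that recognise the RGD motif of fibronectin, vitronectin and the latent form of TGF-beta moved in both directions. ITGB6, an epithelial subunit whose receptor activates latent TGF-beta, was 120.4, 83.8 and 148 CPM in NT3, 163, 97.8 and 98.1 CPM in NT5, and 108, 104 and 133 CPM in NT7. It was 125, 127 and 203 CPM in HT3, 312 and 259 CPM in HT5 and 218, 201 and 270.5 CPM in HT7. All HT5 and HT7 samples exceeded the highest of the 9 normoxia samples. The log2FC was 0.37 (SE 0.25, adjusted p = 0.497) on day 3, 1.25 (SE 0.27, adjusted p = 0.00365) on day 5 and 0.99 (SE 0.25, adjusted p = 0.00433) on day 7. ITGAV, the alpha subunit that pairs with ITGB3, ITGB5, ITGB6 and ITGB8, had 160.1 and 146 CPM in HT5 and 90.7 to 145 CPM in HT7, compared with 79.0 to 101 CPM in NT5 and 59.1 to 76.2 CPM in NT7. It was higher on day 5 (log2FC 0.75, SE 0.18, adjusted p = 0.00667) and day 7 (log2FC 0.80, SE 0.17, adjusted p = 0.00121).

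ITGB5, a further partner of ITGAV, was lower. It had 70.3, 63.5 and 60.3 CPM in NT3, 50.3, 56.1 and 56.7 CPM in NT5 and 71.4, 82.1 and 66.1 CPM in NT7, and 63.9, 75.8 and 44.4 CPM in HT3, 32.5 and 32.8 CPM in HT5, and 40.9, 28.2 and 33.9 CPM in HT7. No sample of HT5 or HT7 overlapped normoxia, with a log2FC of -0.74 (SE 0.19, adjusted p = 0.0111) and -1.09 (SE 0.17, adjusted p = 0.000145), and the day 5 call was lost without HT5 replicate 2 (adjusted p = 0.0822). ITGB8, a subunit that also binds latent TGF-beta, had 10.4 to 18.7 CPM in HT7 and 21.2 to 23.8 CPM in NT7 (log2FC -0.55, SE 0.19, adjusted p = 0.0257). That call was lost with day 7 samples alone (adjusted p = 0.0967), without HT7 replicate 1 (0.107) and without NT7 replicate 1 (0.0748). ITGB3 and ITGA2B, which together form the fibrinogen receptor of platelets, were not called. Their log2FC on day 7 was 0.53 (SE 0.23, adjusted p = 0.073) and 0.02 (SE 0.20), and ITGB3 was called higher with the replicate block or without HT7 replicate 2.

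Of the 4 alpha subunits that bind collagen, ITGA2 alone was called between the arms. It lies beside ITGA1 on chromosome 11 (69031022 to 69134101, plus strand). NT3 had 94.0, 105 and 98.1 CPM, NT5 108, 121 and 83.0 CPM, and NT7 41.0, 55.6 and 71.7 CPM. Hyperoxia samples had 53.9, 44.3 and 73.2 CPM on day 3, 118 and 143 CPM on day 5, and 148, 95.1 and 127 CPM on day 7. All HT3 samples were thus below NT3 and all HT7 samples above NT7, while HT7 overlapped the normoxia samples of days 3 and 5. The log2FC went from -0.79 (SE 0.22, adjusted p = 0.103) on day 3 through 0.32 (SE 0.25, adjusted p = 0.33) on day 5 to 1.14 (SE 0.22, adjusted p = 0.000829) on day 7. Within normoxia the difference of day 7 from day 3 was -0.82 (SE 0.22, adjusted p = 0.494). ITGA1 and ITGA10 overlapped between arms on every day, with a day 7 log2FC of -0.28 and -0.09. ITGA11, at 1.15 to 5.79 CPM over all samples, had -0.86 (SE 0.39, adjusted p = 0.0789) and was called lower without HT7 replicate 1.

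ITGA4 and ITGA9 form receptors for fibronectin, VCAM1 and other ligands on leukocytes and mesenchyme. ITGA4 had 15.7 to 31.8 CPM in HT7 and 39.0 to 44.0 CPM in NT7 (log2FC -0.99, SE 0.29, adjusted p = 0.0106), a call lost without HT7 replicate 1 (adjusted p = 0.052) and without HT7 replicate 3 (adjusted p = 0.0559). ITGA9 was not called (log2FC -0.36, SE 0.23, adjusted p = 0.2) except without HT7 replicate 2. Of the leukocyte subunits, ITGAL, the alpha chain of the receptor by which lymphocytes bind ICAM1, had 104 to 127 CPM in HT7 and 174 to 193 CPM in NT7 (log2FC -0.63, SE 0.21, adjusted p = 0.0209). The call was lost without HT7 replicate 1 (adjusted p = 0.0795) and without NT7 replicate 3 (adjusted p = 0.0572), and HT7 overlapped NT3, at 99.4 to 116 CPM. ITGAD, ITGAE, ITGAM, ITGAX, ITGB2 and ITGB7 were not called on any day, although with the replicate block ITGB2 was called lower on day 7, and ITGAM was called higher on day 3 in the samples of that day alone and higher on day 5 without NT5 replicate 1. ITGB2, the common beta subunit of leukocytes, had 548 to 664 CPM in HT7 and 666 to 815 CPM in NT7 (log2FC -0.34, SE 0.15, adjusted p = 0.0773). ITGAM, known from neutrophils and macrophages, had 40.6 to 48.7 CPM in HT3 and 26.8 to 27.6 CPM in NT3 (log2FC 0.72, SE 0.37, adjusted p = 0.379). Neither gene passed the threshold, although their groups did not overlap on those days.

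Whether the hyperoxia difference itself changed between day 3 and day 7 was tested as an interaction. It was more negative on day 7 for 10 of the 40 genes and more positive for 2, where 11.0% and 9.52% of all genes tested were called. NPNT (-3.26, SE 0.48, adjusted p = 0.00118), ITGA8 (-2.49, SE 0.54, adjusted p = 0.00646) and LAMA2 (-2.22, SE 0.48, adjusted p = 0.00662) had the most negative values, followed by ITGA6, ITGB5, LAMA4, LAMC1, PXDN, ITGA3 and LAMB2. ITGA2 (1.93, SE 0.32, adjusted p = 0.00173) and LAMB3 (0.60, SE 0.16, adjusted p = 0.0164) were positive. With the replicate block 4 were positive, ITGB3 and ITGB6 being added, and the 10 negative genes held ITGAL in place of LAMB2. LAMA1, LAMA3, LAMB1, NID2 and HSPG2 were called lower on days 5 and 7, and the difference of their effects between day 3 and day 7 was not called (adjusted p = 0.0556, 0.13, 0.152, 0.104 and 0.253), nor was it for DAG1 (0.137), ITGAV (0.0719) or ITGB6 (0.22). For LAMA1 it was called by DESeq2 and without HT3 replicate 3, HT7 replicate 2 or NT7 replicate 1, for LAMA3 without HT7 replicate 2, for ITGAV without HT7 replicate 1 and for ITGB6 with the replicate block. Within normoxia none of the 40 genes was called between day 7 and day 3, nor was any gene of the table (0.0%), and 6 of the 40 had an unadjusted p under 0.05, as did 824 of the 13142 genes tested. In that comparison DESeq2 called none of the 40. Within hyperoxia 21 of the 40 were lower on day 7 than on day 3 and ITGA2 was higher, against 22.0% and 22.3% of all genes. The hyperoxia comparison over time shares its samples with the comparisons of each day.

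Genes around these proteins were read from 6 lists made from general knowledge, but chosen with earlier results of these data known. Their counts on day 7 stand beside 23.7% of all genes called higher and 23.7% called lower. Among 26 basement membrane collagens and associated proteins, 13 were lower and 3 higher on day 7 (median log2FC -1.09). On day 5, when 15.4% of all genes were lower, 10 of the 26 were, a count that was 4 without HT5 replicate 2. Fibulins, netrins and FREM proteins are matrix components of this sheet, and the largest decreases were those of FREM1 (-2.89, SE 0.37), NTN1 (-2.71, SE 0.21) and FBLN2 (-2.44, SE 0.38). The higher genes were TGFBI (1.46, SE 0.26), FBLN1 (1.33, SE 0.29) and COL18A1 (0.70, SE 0.17). COL4A1 and COL4A2, the chains of the most widespread type IV collagen, had -0.18 (SE 0.18) and -0.18 (SE 0.16) and were not called, while the other 4 type IV chains were lower. These were COL4A3 (-2.13, SE 0.22, adjusted p = 5.86e-06) and COL4A4 (-2.16, SE 0.34, adjusted p = 0.000134), chains of alveolar and glomerular membranes, COL4A5 (-1.33, SE 0.32, adjusted p = 0.00336) and COL4A6 (-1.13, SE 0.36, adjusted p = 0.0172). The 6 type IV chains were named after their values were seen.

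Of 30 ligands of integrins outside this sheet, 7 were higher and 7 lower on day 7, near the 23.7% of all genes in each direction. SPP1 (3.77, SE 1.20), THBS1 (3.34, SE 0.34) and CCN1 (2.67, SE 0.60) rose most, proteins of matrix signalling and wound repair, and EDIL3 (-2.42, SE 0.38), ICAM2 (-1.58, SE 0.15) and POSTN (-1.18, SE 0.26) fell most. Of 31 adaptors and focal adhesion proteins, which couple integrin tails to actin, 14 were lower and 4 higher, where 23.7% of all genes were called each way. TNS1 (-1.68, SE 0.29), TLN2 (-1.44, SE 0.18) and ZYX (-1.01, SE 0.16, in a locus shared with CLCN1) led the decreases, while TNS4 (0.76, SE 0.29) and ACTN1 (0.63, SE 0.17) were among the increases.

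Of 10 hemidesmosome and tetraspanin partners, 6 were lower and 2 higher, the latter near the 23.7% of all genes. CAV1 (-2.40, SE 0.23), CD81 (-1.33, SE 0.14) and CD82 (-1.07, SE 0.17) fell, while the basal cell keratin KRT5 (1.99, SE 0.38) and the syndecan SDC4 (1.59, SE 0.28) rose. Partners and glycosylating enzymes of dystroglycan numbered 8 lower and 5 higher of 25, not far from the 23.7% of all genes called each way. SSPN (-2.42, SE 0.36), DMD (-1.45, SE 0.19) and SGCD (-1.40, SE 0.29), members of the dystrophin complex, were lower. SGCA (1.52, SE 0.34) and LARGE2 (0.60, SE 0.20) were among the higher genes, whose count was 3 without HT7 replicate 1, HT7 replicate 3, NT7 replicate 1 or NT7 replicate 3. Of 20 heparan sulfate core proteins and enzymes, 10 were lower, led by NDST1 (-2.17, SE 0.27), GPC3 (-1.96, SE 0.27) and SDC3 (-1.56, SE 0.16), and 2 were higher, the sulfatases SULF2 (1.16, SE 0.18) and SULF1 (0.60, SE 0.15). On day 3, 2 collagens or associated proteins and 2 ligands were called lower in these lists and none was called higher.

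**Figure D5:**
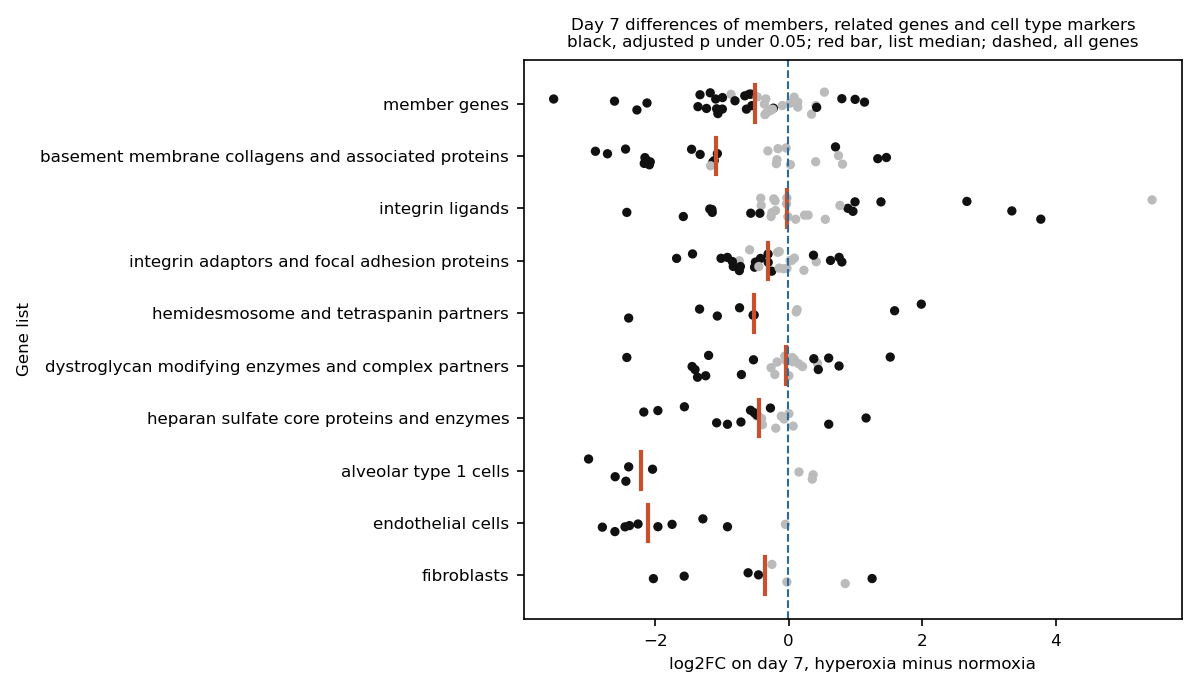
log2FC on day 7 for the 40 genes, for 6 lists of related genes and for 3 lists of cell type markers (1 row per list, 1 point per gene, spread vertically for legibility). Black points have an adjusted p under 0.05, red bars are list medians and the dashed line is the median of all genes tested. The alveolar type 1 and endothelial marker rows have the lowest medians, -2.22 and -2.11.

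Markers of lung cell types were read on the same days, with 23.7% of all genes called higher and 23.7% lower on day 7 as the background of each count. In a tissue homogenate, fewer cells of a type and less RNA per cell cannot be told apart. Of 8 alveolar type 1 markers 5 were lower on day 7, among them AGER, CLIC5 and CAV1, and none was higher, while HOPX, PDPN and GPRC5A were not called. Their summed level was 8034 to 9082 CPM in NT7 and 2548 to 3189 CPM in HT7, and 7099 to 8642 CPM in NT5 and 2937 and 4917 CPM in HT5. Of 10 endothelial markers 9 were lower, with sums of 2700 to 3592 CPM in NT7 and 1005 to 1388 CPM in HT7, and PECAM1 was not called. Fibroblast markers had 4 lower and 1 higher of 8, with overlapping sums of 7720 to 10006 CPM in NT7 and 7190 to 8189 CPM in HT7. Smooth muscle and pericyte markers had 4 lower and 1 higher of 10, beside 23.7% of all genes each way, with sums of 1393 to 1884 CPM in NT7 and 1099.98 to 1332 CPM in HT7. The part of these cell types in the values of the laminin, integrin and nephronectin genes was not tested.

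Alveolar type 2 markers were present at 12844 CPM or more in every sample and had 2 lower and 1 higher of 9 on day 7, near the 23.7% of all genes called each way. Markers of Schwann cells and nerve, cells known for LAMA2, fell in 2 of 5, and their sum was 83.6 to 199 CPM in NT7 and 5.28 to 15.1 CPM in HT7. Lymphocyte markers, which go with ITGAL and ITGA4 by cell type, were lower in 6 of 10, with sums of 11.7 to 22.1 CPM in NT7 and 4.25 to 7.26 CPM in HT7. Macrophage and monocyte markers had 3 higher and 2 lower of 11, with sums of 1419.5 to 1716 CPM in NT7 and 2139 to 2746 CPM in HT7. Neutrophil markers, which go with ITGAM by cell type, had 1 each way of 6 on day 7, with overlapping sums of 1063 to 1153 CPM in NT7 and 1048 to 3458 CPM in HT7. On the earlier days their sums did not overlap, at 296 to 795 CPM in NT3 and 1138 to 1675 CPM in HT3, and at 157 to 691 CPM in NT5 and 702 and 951 CPM in HT5. None of them was called on day 3 and 2 were higher on day 5, when 15.9% of all genes were. Basal cell markers, which include KRT5, had 2 higher and 1 lower of 5 and a median log2FC of 0.19 on day 7. Their sums were 645 to 702 CPM in NT7 and 467 to 594 CPM in HT7. A large part of these sums was DST, at 438 to 445 CPM in NT7 and 245 to 283 CPM in HT7. KRT5 went from 1.15 to 1.91 CPM in NT7 to 5.33 to 8.54 CPM in HT7, so the lower sum does not stand for the list. For the macrophage, neutrophil and basal cell lists these few calls stand beside 23.7% of all genes in each direction. What these cells contribute to the leukocyte integrins or to LAMB3 was not tested.

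Further marker lists, apart from that of platelets, had summed levels lower in every HT7 than in every NT7 sample. Skeletal muscle markers, with 1 lower and 0 higher of 6 on day 7, summed to 93.4 to 112 CPM in NT7 and 62.1 to 72.7 CPM in HT7. Mesothelial markers, of which 1 of 5 was called lower and none higher on day 7, summed to 77.6 to 169 CPM in NT7 and 11.5 to 39.5 CPM in HT7. The same sums were 79.9 to 159 CPM in NT5 and 18.0 and 49.1 CPM in HT5. The median log2FC of this list was -0.35 on day 5 and 0.50 on day 7, so the lower day 7 sum does not stand for most of its markers. Ciliated cell markers, with 2 lower and 1 higher of 10, summed to 269.8 to 335 CPM in NT7 and 160.4 to 206 CPM in HT7. Sums of mast cell markers (1 lower of 4) were 42.1 to 87.2 CPM in NT7 and 15.4 to 19.9 CPM in HT7. Those of erythroid markers (3 lower of 5) were 124 to 213 CPM and 50.8 to 70.4 CPM in the same order. Those of heart muscle markers (1 lower of 4) were 28.0 to 32.5 CPM and 6.61 to 11.2 CPM. The median log2FC on day 7 was 0.18 for the mast cell list, above 0 although its sum was lower. It was -0.25 for ciliated, -1.46 for erythroid, -0.78 for heart muscle and -0.74 for skeletal muscle markers. Platelet markers, which go with ITGA2B and ITGB3, had 2 lower of 4 and overlapping sums of 17.8 to 40.9 CPM in NT7 and 17.7 to 28.2 CPM in HT7. The part of these cells in the values of the 40 genes was not tested.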

How the data were processed

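Right lung homogenates of 17 preterm rabbit pups were profiled, 8 in hyperoxia and 9 in normoxia. Poly(A) RNA libraries were prepared with a stranded kit and sequenced as paired-end reads. Per the submitters' processing notes the reads were checked with FastQC and aligned with STAR 2.7.10a to OryCun2.0, and the counting program is not given in the sources used here. The authors deposited raw read counts per locus with no normalization. The identifiers of most loci have the form StringTie writes. A locus holding several annotated genes is entered once for each with the same counts, as for 948 of 13827 entries at 434 of 13313 loci.

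Genes were filtered with filterByExpr (13142 tested, 685 not tested), normalised by TMM and fitted with a quasi-likelihood model of 6 group means over all 17 samples in edgeR 4.0.16 (R 4.3.3), so that HT5, with 2 samples, shares the spread of the other groups. The Benjamini-Hochberg adjustment covered every gene tested, and log2FC used a prior count of 0.125. CPM were scaled by the TMM library sizes of the tested entries. They are not corrected for gene length, so levels were compared between samples and not between genes. Totals of 13123731 to 18111086 counts limit precision mainly for genes at a few CPM. The fitting script was tested on simulated data. DESeq2 1.42.0, other size factors, no filter, 1 entry per locus, the samples of the compared days alone, a replicate block, stricter thresholds and leaving out each sample were tried as alternatives. Figures were drawn with matplotlib 3.10.9 in Python 3.11.

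Deviations of same-numbered samples from their group means correlated weakly between the arms on day 3 (0.166, 0.131 and 0.199), and similarly on the later days. The main fit held no block for the replicate number, and adding 1 changed no day 3 call. Every gene that matched the rule is named. Values in every sample are given for genes called on day 5 or 7 with a log2FC of at least 1 in size on a called day, and for LAMC1, LAMB1, ITGB1, NID1, HSPG2 and DAG1. Related genes named are the up to 3 largest increases and decreases among those called on day 7, some of which are not reported here. The genes and lists were chosen with earlier results of these data known. ITGA9 and ITGB3 carry no rabbit symbol and are named by their human symbol.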

Additional observations from a re-analysis of the deposited data

Results flagged for a closer look

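For 12 of the 40 genes the hyperoxia difference on day 7 departed from that on day 3 in the interaction test of edgeR. Of all genes tested, 11.0% were called more negative and 9.52% more positive. NPNT changed by -3.26, ITGA8 by -2.49, LAMA2 by -2.22, ITGA6 by -1.11, ITGB5 by -1.02, LAMA4 by -0.98, LAMC1 by -0.97, PXDN by -0.90, ITGA3 by -0.63 and LAMB2 by -0.49 on the log2 scale, all toward lower levels in hyperoxia. ITGA2 changed by 1.93 and LAMB3 by 0.60, toward higher levels. For NPNT, ITGA8 and LAMA2 the value was -3.92, -3.36 and -2.86 without HT7 replicate 2.

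Of these calls, 3 depend on single samples. That of ITGA6 had an adjusted p of 0.0503 to 0.063 without HT3 replicate 3, HT7 replicate 1, HT7 replicate 3, NT3 replicate 2 or NT7 replicate 3. LAMB2 had 0.0561 to 0.0712 without HT3 replicate 2, HT7 replicate 3, NT3 replicate 2, NT3 replicate 3 or NT7 replicate 2, and 0.0629 with a replicate block. PXDN had 0.0528 to 0.0965 without any 1 of 9 samples, namely HT3 replicates 2 and 3, HT7 replicates 1 and 3, NT3 replicates 1, 2 and 3, and NT7 replicates 2 and 3. The largest shift was to -0.62 without NT7 replicate 3.

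ITGA2 is the gene of the 40 whose groups were wholly separate in opposite directions on day 3 and day 7. Its NT7 samples, at 41.0 to 71.7 CPM, were below all samples of NT3 and NT5, at 83.0 to 121 CPM, and this drop in normoxia was not called (adjusted p = 0.494). LAMB3 likewise had lower values in NT7 (175 to 189.6 CPM) than in NT3 (226 to 249.8 CPM), and that difference was not called either (log2FC -0.39, SE 0.11, adjusted p = 0.517). Both values enter the interaction beside those of the hyperoxia samples.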

How the results depend on the processing

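The log2FC of each call between the arms on days 5 and 7 and of each interaction call, with those of LAMC1, LAMB1, ITGB1, NID1, HSPG2 and DAG1 on every day, made 60 results, and the calls between days within hyperoxia are not among them. All 60 kept their direction and their side of the threshold with RLE size factors, DESeq2, no filter or 1 entry per locus. With the samples of the compared days alone 57 did and 3 lost the call, with a replicate block 57 did, 2 lost it and 1 gained it. No sign turned except for ITGB1 on day 3 (-0.0726 to 0.0153 over the samples left out, positive without NT3 replicate 3) and NID1 on day 5 (-0.7843 to 0.0482, positive without HT5 replicate 2), both uncalled.

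Leaving out 1 sample at a time gave 2 to 3 genes higher and 5 to 16 lower on day 5, 4 to 5 and 18 to 21 on day 7, 2 to 3 and 7 to 14 for the interaction, 1 to 3 and 18 to 21 for day 7 against day 3 in hyperoxia (3 higher without HT3 replicate 3, 2 without HT7 replicate 1 or 2), and 0 each on day 3 and for normoxia. Without an HT5 sample the lone remaining one is assumed to vary like the other groups.

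Counts moved under other settings as follows. On day 3 the samples of that day alone gave 1 higher (ITGAM) and DESeq2 gave 1 lower (ITGA2). The rule of the study gave 0 higher and 2 lower on day 5, 0 and 4 on day 7, 0 and 3 for the interaction, and 0 and 4 within hyperoxia. An adjusted p under 0.01 alone gave 1 and 5 for the interaction. Within normoxia the samples of days 3 and 7 alone gave 1 higher (ITGAL). Within hyperoxia the ITGB1 call was lost with no filter, with the samples of those days alone and with the block, those of ITGB4 and ITGB8 with the block, and 1 or more of ITGA1, ITGB1, ITGB4, ITGB8 and NID1 without each HT3 or HT7 sample. DESeq2, the samples of those days alone and the block each gave 2 higher there. With the replicate block the interaction had 4 higher (ITGB3 and ITGB6 added), day 5 had 2 higher and 13 lower (DAG1 added), and day 7 had 5 higher (ITGB3 added) and 20 lower (ITGB2 in place of ITGB1). The deviations of same-numbered samples correlated by 0.264 and 0.141 on day 5, where only 2 pairs exist, and by 0.174, 0.109 and 0.0695 on day 7. These values overlap those of day 3, so they do not set that day apart. The numbers were not taken to pair samples on any day in the main fit. The causes of these shifts were not tested. Depth limits mainly ITGA11, with 796 counts over all 17 samples, and 2 samples in HT5 limit every day 5 statement.

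Applied to the related lists, alternatives added after seeing the data left the day 7 counts within 1.5 times except for the dystroglycan partners named above. On day 5 the lower counts of the collagen, ligand, adaptor and heparan sulfate lists dropped to 4, 3, 3 and 3 without HT5 replicate 2, from 10, 9, 7 and 8.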
